A study of Mus musculus with 13 samples.

Results

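First-division cells are CD8+ T cells that had divided once, 2 days after infection, and they made up 144 of the 1449 single cells in the series. They were chosen by their column heading alone, which names the population, and by no measured value. The series followed OT-1 T cells, a transgenic line whose single receptor recognises an ovalbumin peptide, through infection with Listeria monocytogenes engineered to express ovalbumin, by quantitative PCR of 94 genes in sorted single cells. CD45.1+ OT-1 cells were given to CD45.2+ C57BL/6J hosts, and the infection was intravenous. The populations used here were, at day 2, first-division cells, with 2000000 dye-labelled OT-1 cells transferred and spleens taken at 48 h, the proximal (83 cells) and distal (48 cells) daughters of the first division, also at day 2, unsorted responders at day 3 (143 cells, 20000 OT-1 cells transferred), and naive OT-1 cells (149 cells) from before infection. For the naive, proximal and distal cells the transferred number is not given in the sources used here, nor are the number of mice, the animals' age, the gates or the array each cell was run on. All 5 populations carried the same transgenic receptor, so the cells represent the response to 1 peptide through 1 receptor.

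When a naive CD8 T cell meets its antigen it leaves quiescence, grows and divides. Klf2 is a transcription factor of resting T cells that keeps them quiescent and recirculating between blood and lymphoid organs, and receptor signalling switches it off. Myc drives the growth programme, Irf4 is induced by receptor signalling according to its strength, and Il2ra completes the high-affinity receptor for interleukin 2, of which Il2rb is the signalling chain shared with the interleukin 15 receptor. Eomes is a T-box transcription factor of effector and memory CD8 cells, Tcf7 encodes the factor TCF1 of naive and memory cells, and Il7r encodes the receptor chain through which naive cells receive their survival signal.

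A value above 0 in the deposited table was counted as detection of the transcript. Values are on a log2 scale in PCR cycles, and a higher value means more transcript. Each population was 1 sample and cells are not replicates, so no test was possible. Genes were instead counted by size, at least 20 percentage points between shares of cells. Intervals are exact (Clopper-Pearson) at 95% and cover counting error only. Fewer cells with a transcript and less RNA per cell cannot be told apart where a share is low.

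Transcripts of the cells' label were found, though not in every cell. Cd8a was found in 60.4% of first-division cells, against 41.6% of naive cells, and the pan-leukocyte gene Ptprc in 93.8%, against 94.0%. Thy1, a surface antigen of T cells, was found in 29.2%, against 19.5%. Of the 3 measured markers of other lymphocyte types, Cd4 and Gata3 were each found in 1 of 144 first-division cells, against 0 and 2 of 149 naive cells. Foxp3, the factor of regulatory T cells, was found in 0 first-division cells, which allows a share of up to 2.08%, against 2 naive cells. All 5 genes given as markers of the population (Myc, Il2ra, Irf4, Eomes and Il2rb) were found in more first-division than naive cells by over 20 points. Over the whole panel 10 of 94 genes (10.6%) rose by at least 20 points. The markers were chosen with earlier results of these data known, so their rise is not separate support for the label.

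First-division cells differed more among themselves than naive cells did in how many of the 95 assays were positive. A first-division cell had 6 to 33 positive assays, with a median of 18, and a naive cell 7 to 20, with a median of 12. The quartiles were 14 and 22.2 in first-division cells, against 10 and 14 in naive cells. The abundant transcripts had higher median values in first-division cells: the median was 28.68 in first-division cells, against 27.98 in naive cells, for R18s, 20.3 against 19.3 for Actb, and 17.3 against 15.6 for Gapdh. The naive medians moved with the order of the columns. For R18s they were 26.85 in the earlier 74 and 28.57 in the later 75 naive columns. For Actb they were 18.9 and 19.7, and for Gapdh 14.7 and 16.2.

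The table also held an order that the labels do not explain. Ccr7 was found in 39 of the first 85 first-division columns and in 0 of the last 59, and the ribosomal protein gene Rpl35 in 0 of the first 85 and in 28 of the last 59. Between the later and earlier 72 columns, 4 of 94 genes were found in more of the later cells by at least 20 points (4.26%) and 5 in fewer (5.32%). Cxcr3 was found in 43.1% of later and 11.1% of earlier cells, Tcf7 in 81.9% and 59.7%, and Cd8a in 70.8% and 50.0%. Ccr7 was found in 9.72% of later and 44.4% of earlier cells, Casp9 in 1.39% and 33.3%, Xcl1 in 6.94% and 29.2%, Cd69 in 5.56% and 26.4%, and Psmb7 in 29.2% and 50.0%. Whether the columns follow arrays, mice or sorts is not given in the sources used here, so what separates them cannot be told apart. Results below are therefore given for parts of the columns where they move with them. The naive columns also differed, with medians of 13 positive assays in the later 75 and 11 in the earlier 74.

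**Figure D1:**
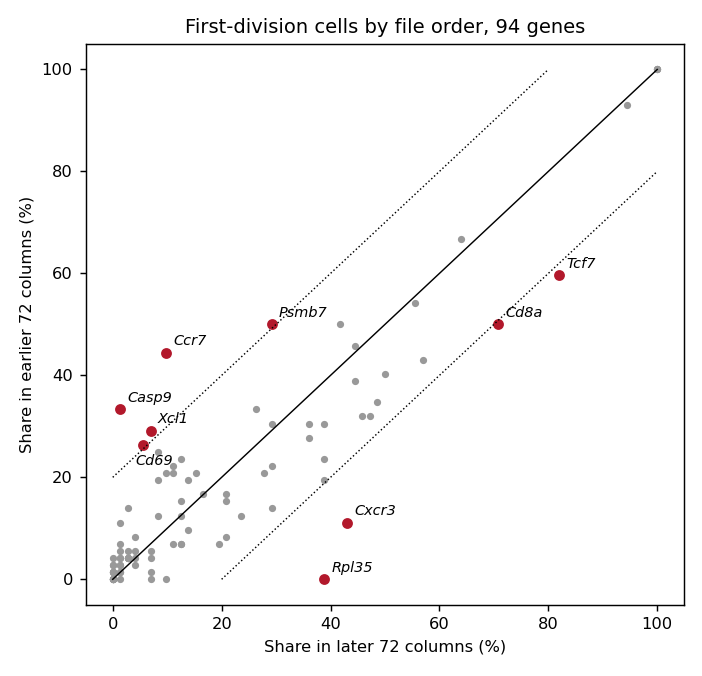
Share of first-division cells with each of 94 genes, as percent, in the later 72 columns (x) against the earlier 72 columns (y) of the table. The solid line marks equal shares and the dotted lines 20 points apart, past which 9 named genes lie, such as Cxcr3 (43.1% later, 11.1% earlier) and Ccr7 (9.72% later, 44.4% earlier).

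Across the panel, 10 of 94 genes (10.6%) were found in more first-division than naive cells by at least 20 points, and 3 (3.19%) in fewer. Over all 94 genes the median difference was 4.51 points, with 69 genes above 0 and 18 below. Of the genes, 22 were found in at least 1 first-division cell and in 0 naive cells, and 4 the other way round (Foxp3, Id2, Prkcz and Psmb1). The panel was mostly heterogeneous within the population: 3 genes (Actb, Gapdh and R18s) were in all 144 first-division cells, Ptprc in 135, and 5 (Cd8a, Il2rb, Myc, Tcf7 and Zfp281) in 72 to 102. Another 42 genes were in 15 to 71 cells and 35 in 1 to 14. In 8 genes no first-division cell had a value above 0, namely Bmp2, Foxp3, Id2, Pdcd1, Prkcz, Psmb1, Sema7a and Serpinb6b.

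**Figure D2:**
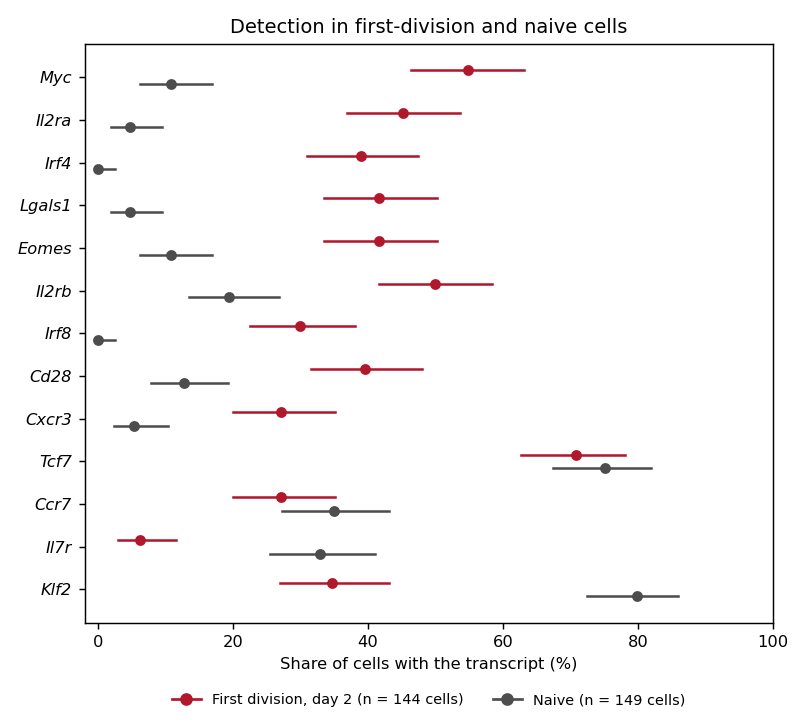
Share of cells with the transcript, as percent, for 13 genes in 144 first-division cells (red) and 149 naive cells (grey), with bars for the exact 95% interval. Myc, Il2ra and Irf4 lie to the right in first-division cells (54.9%, 45.1% and 38.9%), Klf2 and Il7r to the left (34.7% and 6.25%), and Tcf7 is close in both (70.8% and 75.2%).

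Among genes of activation and growth, Myc transcript was present in 79 of 144 first-division cells (54.9%, 46.4 to 63.2%), against 16 of 149 naive cells (10.7%, 6.26 to 16.9%). The deposited Myc values in positive first-division cells ran from 13.0 to 20.3 with a median of 17.0 and an SD of 1.70 cycles, and the naive median was 14.6. The growth gene was thus not detected in 65 first-division cells, and the middle of its positive values lay above the naive middle. Cd28, the costimulatory receptor, was found in 39.6% against 12.8%, but 27 of its 57 positive values in first-division cells lay at or below 12, the value read as Ct 28 and used as the lower limit of the level. Counting values above 12 alone, the Cd28 difference was 14.8 points, short of 20. Of the 7 measured genes of this list, 2 (Myc and Cd28) passed 20 points upwards and 0 downwards, with a median difference of 12.02 points.

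The other 5 genes of activation and growth had higher shares in first-division cells without passing 20 points. Tnfrsf9, the costimulatory receptor 4-1BB, was found in 23 first-division cells, against 2 naive cells, and Cd69, an early activation antigen, in 23 against 8. Mtor, the growth kinase, was found in 26 against 9. Hk2, a hexokinase of glycolysis, was found in 5 against 0, and Cd44, the adhesion receptor whose protein was stained in the sort, in 6 against 0.

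Among cytokine receptors and interleukins, 2 of 6 measured genes passed 20 points upwards and 1 downwards, with a median difference of 6.28 points. Il2ra was found in 65 first-division cells (45.1%, 36.8 to 53.6%), against 7 naive cells (4.70%, 1.91 to 9.44%). Its positive values ran from 11.1 to 20.6 with a median of 16.2 in first-division cells, and the naive median was 14.5. Il2rb was present in 72 first-division cells (50.0%, 41.6 to 58.4%), against 29 naive cells (19.5%, 13.4 to 26.7%). Both chains of the interleukin 2 receptor were therefore found in more first-division cells. The intervals count cells of 1 sample each and leave out the shifts with column order. In the earlier and later first-division columns Il2ra was found in 40.3% and 50.0% of cells, and Il2rb in 43.1% and 56.9%.

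Positive Il2rb values ran from 13.5 to 28.2 with a median of 16.6 in first-division cells, and the naive median was 15.5. The highest Il2rb value exceeded the same cell's Actb value, as 2 of the 72 did. Il7r was found in 9 first-division cells (6.25%, 2.90 to 11.5%), against 49 naive cells (32.9%, 25.4 to 41.0%). In the 9 positive cells the Il7r values, 13.2 to 17.4 with a median of 16.4, lay in the range of the naive ones, whose median was 16.0. The difference in Il7r was thus seen in how many cells were positive, and at this low share less RNA per cell cannot be told apart from it. Il2 itself, measured by a pair of rows, was found in 2 first-division cells, the same ones in both rows, against 0 naive cells.

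Of the 10 measured effector transcription factors, 3 passed 20 points upwards and 0 downwards, with a median difference of 3.74 points. Irf4 was found in 56 first-division cells (38.9%, 30.9 to 47.4%), against 0 of 149 naive cells, which allows up to 2.01%. Its values ran from 12.1 to 18.0 with a median of 14.6. Irf8, a related interferon regulatory factor, was found in 43 first-division cells (29.9%, 22.5 to 38.0%), against 0 naive cells, though 12 of the 43 values lay at or below 12. Eomes was found in 60 first-division cells (41.7%, 33.5 to 50.2%), against 16 naive cells (10.7%, 6.26 to 16.9%), with positive medians of 15.8 and 14.9. The factors of terminal effector cells were rare at this stage: Tbx21, which encodes T-bet, was found in 1 first-division cell against 0 naive cells, Prdm1, which encodes Blimp-1, in 6 against 0, and Zeb2 in 6 against 2.

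The quiescence, naive and memory genes did not move as a block. Of 12 measured, 0 passed 20 points upwards and 3 downwards, 6 were above and 6 below the naive share, and the median difference was -0.65 points. Klf2 was found in 50 first-division cells (34.7%, 27.0 to 43.1%), against 119 naive cells (79.9%, 72.5 to 86.0%), the farthest of any gene downwards. Positive Klf2 values were close, with a median of 16.0 in first-division cells (11.7 to 18.1, SD 1.35), against 16.2 in naive cells. Klf2 was thus detected in fewer cells, at similar values in those that had it. Besides Klf2 and Il7r, the third gene past 20 points is counted here without its name.

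Tcf7 was found in 102 first-division cells (70.8%, 62.7 to 78.1%), against 112 naive cells (75.2%, 67.4 to 81.9%), with positive medians of 17.6 and 16.6. The Tcf7 difference, -4.33 points, changed sign with the columns, from -16.3 to 7.62 points over the 4 pairings of earlier and later columns. Ccr7, the receptor that guides naive cells to lymph nodes, was found in 27.1% of first-division cells, against 34.9% of naive cells, and its difference lay between -26.3 and 10.7 points over the same pairings. Lef1, a relative of Tcf7, was found in 26 first-division cells and 26 naive cells, Foxp1 in 43 and 43, Foxo1 in 45 and 35, and Foxo3 in 21 and 12. These forkhead factors of quiescent T cells were thus all below 20 points.

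Effector molecules and chemokines were found in minorities of cells. Of 6 measured cytotoxic and effector genes, 1 (Lgals1, which encodes galectin-1) passed 20 points, with 60 first-division cells (41.7%) against 7 naive cells (4.70%), but 31 of the 60 values were at or below 12, and counting values above 12 alone the difference was 19.5 points. Gzmb, the cytotoxic protease granzyme B, was found in 26 first-division cells against 11 naive cells. Ifng was found in 12 against 1, and Serpinb9, an inhibitor of granzyme B, in 24 against 0, with 22 of the 24 values at or below 12. The median difference of this list was 9.17 points.

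Of the 8 measured chemokines and receptors, 1 (Cxcr3, the receptor for interferon-induced chemokines) passed 20 points, with 39 first-division cells (27.1%, 20.0 to 35.1%) against 8 naive cells (5.37%, 2.35 to 10.3%), and the median difference was 12.9 points. Xcl1, which attracts cross-presenting dendritic cells, was found in 26 first-division cells against 1 naive cell. The inflammatory chemokine Ccl4 was found in 24 against 1, Ccl3 in 15 against 0, and Ccl5 in 20 against 2. All 20 Ccl5 values of first-division cells were at or below 12, from 1.23 to 8.18, so they mark very late amplification.

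Casp9, the initiator caspase of the mitochondrial apoptosis pathway, was found in 25 first-division cells against 0 naive cells, and 24 of the 25 stood among the earlier 72 columns. It did not pass 20 points. The signalling, repressor, identity, inhibitory and reference lists held no gene past 20 points. The largest differences in them were Zfp281, a zinc finger repressor, with 65.3% of first-division cells against 45.6%, and Cd8a with 60.4% against 41.6%.

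The 4 pairings of earlier or later first-division columns with earlier or later naive columns showed which of the 13 differences held through the column order. Among the genes past 20 points upwards in all 4 pairings were Myc (39.3 to 48.9 points), Il2ra (32.2 to 48.7), Irf4 (31.9 to 45.8), Eomes, Irf8 and Lgals1. Klf2 (-49.4 to -40.8) was past 20 points downwards in all 4. Cd28 (18.6 to 35.1), Il2rb (16.4 to 44.8), Il7r (-37.2 to -16.0) and Cxcr3 (1.78 to 41.7) did not pass in every pairing. The Cxcr3 difference thus rested on the later columns.

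**Figure D3:**
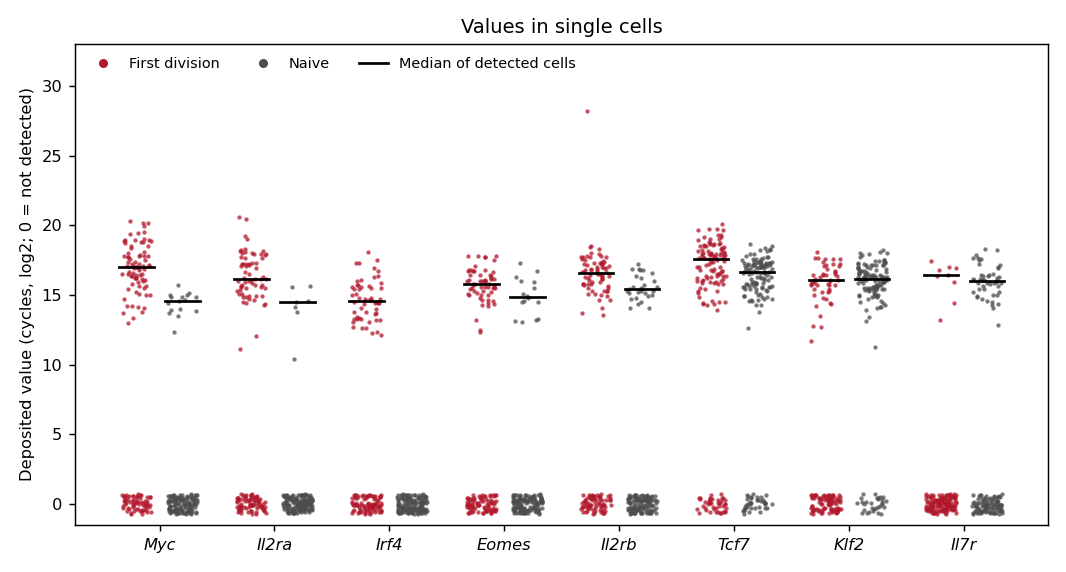
Deposited values (log2, cycles; 0 means no detection) of the marker and quiescence genes in each first-division cell (red) and each naive cell (grey). The cells without detection sit at 0, apart from the positive values, whose medians were 17.0 and 14.6 for Myc and 16.0 and 16.2 for Klf2.

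Mean level, the value minus 12 set to 0 below that, averaged over all cells of a population, gave 9 genes at least 1 cycle higher (9.57%) and 3 at least 1 cycle lower (3.19%) in first-division cells. Myc averaged 2.72 cycles in first-division cells, against 0.26 in naive cells, and Klf2 1.36 against 3.25. Because Actb (1.14 cycles) and Gapdh (1.51) were themselves among the 9 higher genes, each cell was also centred on them. The split then became 3 higher (Myc 1.99, Il2ra 1.44 and Il2rb 1.10) and 3 lower, with Klf2 at -2.86 and Il7r at -1.39. Centred on R18s and Actb it became 4 higher, with Eomes at 1.04 added, and 3 lower. Irf4, at 1.03 cycles as measured, stood at 0.74 and 0.78 after centring.

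The 5 markers were unevenly spread over the cells. Of 144 first-division cells, 18 had none of them, 30 had 1, 28 had 2, 36 had 3, 22 had 4 and 10 had all 5. Of 149 naive cells, 87 had none, 56 had 1 and 6 had 2. At least 3 markers were found in 68 first-division cells (47.2%, 38.9 to 55.7%), against 0 naive cells, which allows up to 2.01%. The share was 38.6% in proximal, 18.8% in distal and 36.4% in day 3 cells. Each of those 3 populations also held cells with none of the markers and cells with all 5, so the spread was not particular to first-division cells. Cells of 1 division stage thus ran from none of the markers to all of them.

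Co-detection was described over 10 genes: the 5 markers, Klf2, Tcf7, Il7r, Ccr7 and Cxcr3. For each pair, the share with the other gene was compared between cells with and without the first gene, where each side held at least 10 cells. Of 43 such pairs in first-division cells, 4 (9.30%) were at least 20 points higher and 3 (6.98%) at least 20 points lower in cells with the first gene. In naive cells 2 of 31 pairs (6.45%) were higher and 0 lower. These are not the same set of pairs. Irf4 was found in 0 and Il2ra in 7 naive cells, so pairs with either as the first gene had too few cells there. Naive pairs with Irf4 as the other gene could only be 0. The naive count is therefore no background for most pairs with Il2ra or Irf4. The cells of a pair share 1 sample, its arrays and their depth of detection, so these are descriptions over cells.

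**Figure D4:**
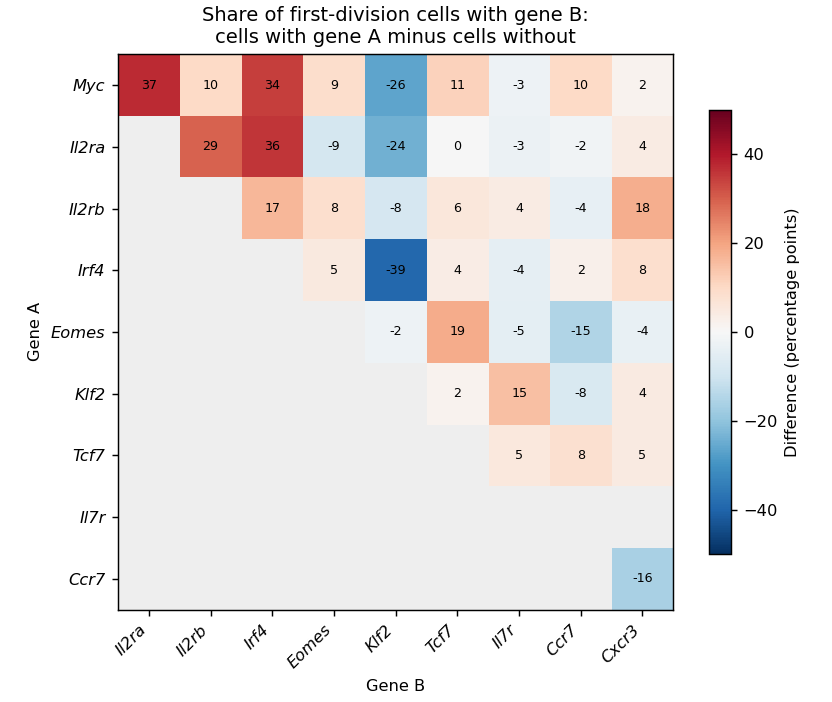
Difference in co-detection, in percentage points, for each pair of 10 genes in 144 first-division cells, as the share with the column gene in cells with the row gene minus that in cells without it. Pairs with fewer than 10 cells on a side are blank. Myc, Il2ra and Irf4 stand above 30 with each other, and Irf4 with Klf2 is lowest at -39.3.

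Myc, Il2ra and Irf4 were found together. Il2ra was found in 49 of 79 first-division cells with Myc (62.0%) and 16 of 65 without it (24.6%), a difference of 37.4 points. Irf4 was found in 43 of 79 cells with Myc (54.4%) and 13 of 65 without (20.0%). Irf4 was also found in 38 of 65 cells with Il2ra (58.5%) and 18 of 79 without (22.8%). The growth gene, the cytokine receptor and the signal-dependent factor thus marked overlapping cells.

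Each of these 3 differences stayed above 20 points in the earlier and later columns and in the first 85 and last 59. Because cells differ in how many assays were positive, each pair was also described in cells with more and with fewer of the other assays. The Myc and Il2ra difference was 28.8 and 26.8 points in those cells, the Il2ra and Irf4 difference 24.04 and 30.36, and the Myc and Irf4 difference 19.8 and 32.9. Il2rb followed Il2ra, in 43 of 65 cells with Il2ra (66.2%) and 29 of 79 without (36.7%), with differences of 27.7 and 16.7 points in cells with more and fewer other assays. Where Irf4 and Il2ra were found together the receptor's value was higher: its median was 17.2 in 38 cells with Irf4 and 15.7 in 27 cells without. The Myc values did not follow in this way. Their median was 16.6 in 49 cells with Il2ra and 17.3 in 30 cells without, and 17.0 in 43 cells with Irf4 and 16.9 in 36 without.

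Klf2 was found mostly in other cells than these. Klf2 was found in 6 of 56 first-division cells with Irf4 (10.7%, 4.03 to 21.9%) and 44 of 88 without it (50.0%, 39.1 to 60.9%). That difference, -39.3 points, was -38.5 in the earlier and -43.8 in the later columns, and -26.0 and -50 in cells with more and fewer other assays. The difference was thus negative in every one of these divisions of the cells. In the 6 cells that had both, Klf2 had a median of 15.6, against 16.1 in the 44 cells with Klf2 and without Irf4.

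Klf2 was also found in 18 of 79 cells with Myc (22.8%) and 32 of 65 without (49.2%), and this difference of -26.4 points was -17.5 in cells with more other assays and -25.5 in cells with fewer. Myc had a median of 16.3 in 18 cells with Klf2 and 17.1 in 61 cells without. The Il2ra and Klf2 difference, 14 of 65 cells with Il2ra (21.5%) and 36 of 79 without (45.6%), was less even: -37.9 points in the first 85 columns, -5.79 in the last 59, and -0.69 in cells with more other assays. Irf4, of the 3 genes, thus kept the widest distance from Klf2 in each of these divisions of the cells.

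Pairs with Eomes and Tcf7 stayed under 20 points over all cells but some moved with the columns. The nearest with Eomes was Tcf7, in 49 of 60 cells with Eomes and 53 of 84 without, and Klf2 differed by -2.38 points and Il2ra by -8.65. The Eomes and Tcf7 difference was 4.38 points in the later and 30.8 in the earlier columns, and that of Eomes between cells with and without Il2rb was 27.1 and -11.6. Tcf7 was found in 36 of 50 first-division cells with Klf2 and 66 of 94 without, a difference of 1.79 points. Il7r, rare in these cells, was found in 8 of 50 cells with Klf2 and 1 of 94 without. In naive cells Il7r was found in 45 of 119 cells with Klf2 and 4 of 30 without, a difference of 24.5 points.

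Counting Myc, Il2ra and Irf4 in each cell divided the first-division cells almost evenly. This count, and the scan of all pairs that follows, were added after the values were seen. None of the 3 was found in 42 cells (29.2%), 1 in 36 (25%), 2 in 34 (23.6%) and all 3 in 32 (22.2%). Along these groups Klf2 was found in 28 (66.7%), 10 (27.8%), 8 (23.5%) and 4 cells (12.5%). Klf2 was thus most frequent where none of the 3 genes was detected, and the interval there, 50.5 to 80.4%, included the 79.9% of naive cells. Each of the 3 genes had already been set against Klf2 in these same cells, so the fall along the count restates those pairs.

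The groups also differed in detection: the median number of other positive assays was 14, 16, 19.5 and 20 from none to all 3, and the median R18s value 28.1, 28.4, 29.2 and 29.4, while Actb had medians of 20.3, 20.2, 20.1 and 20.3. Their part in the result was not tested. They were also unevenly placed, with 15 of the 32 cells with all 3 genes in the first 85 columns, against 30 of the 42 with none. Of the 91 other genes, 14 were found in at least 20 points more of the cells with all 3 than of those with none, and 3 in fewer.

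**Figure D5:**
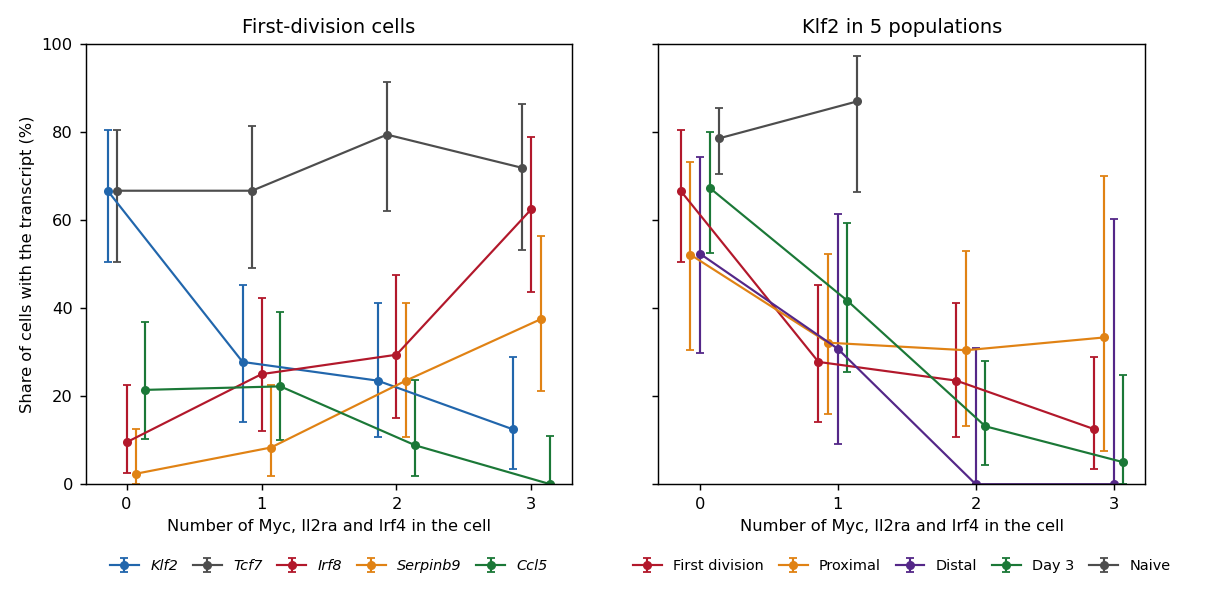
Left, share of first-division cells with each of 5 genes, as percent, by how many of Myc, Il2ra and Irf4 a cell had, from 0 to 3 (42, 36, 34 and 32 cells). Right, the same for Klf2 in 5 populations. Bars are exact 95% intervals. Klf2 runs from 66.7% to 12.5% and Irf8 from 9.52% to 62.5% over the first-division groups, while Tcf7 lies between 66.7% and 79.4%.

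Of the genes found in more of the cells with all 3, Irf8 differed most, in 20 of 32 with all 3 genes (62.5%) and 4 of 42 with none (9.52%), 53.0 points apart, with 63.3 in the first 85 and 44.6 in the last 59 columns. Zfp281 was found in 27 and 18 cells, and Thy1 in 16 and 4. Foxp1, a forkhead factor of quiescent T cells, was found in 14 and 7, Rela in 19 and 13, and Cd8a in 25 and 21. Rpl35 was found in 10 and 1, with a difference of 0 points in the first 85 columns and 50.5 in the last 59. Serpinb9 was found in 12 of the cells with all 3 and 1 with none, Gzmb in 12 and 3, and Tnfrsf9 in 9 and 1. These genes were named because they differed by at least 20 points, so their common direction is no separate result. The groups compared were of 32 and 42 cells with different numbers of positive assays.

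Some of these differences moved with the column order. The Xcl1 difference was 23.4 points in all columns but 56.7 in the first 85 and -8.33 in the last 59. Ccl4 differed by 53.3 points in the first 85 and 11.8 in the last 59, and Il2rb by 46.7 and 9.80. Tcf7 was found in 23 of 32 cells with all 3 genes (71.9%) and 28 of 42 with none (66.7%), and Eomes in 12 and 15, so neither followed the count. Ccl5 went the other way, in 0 of 32 cells with all 3 genes, which allows up to 9.38%, and 9 of 42 with none.

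A scan of all 1081 pairs of the 47 genes found in 10 to 90% of first-division cells described co-detection by phi, the correlation of presence and absence over 144 cells. All cells shared 1 sample, its arrays and its depth of detection. Phi ran from -0.40 to 0.51 with a median of 0.04, and 65.4% of pairs lay above 0. Of 946 pairs with a value in both the first 85 and last 59 columns, 32 were at least 0.2 in both and 7 at most -0.2 in both.

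Among the 32, Irf8 was tied to the activation genes: Myc was found in 35 of 43 cells with Irf8 (81.4%) and 44 of 101 without (43.6%), and Il2ra in 30 of 43 and 35 of 101. Irf4 was tied to Thy1, found in 28 of 56 cells with Irf4 and 14 of 88 without, and to Serpinb9, in 18 of 56 and 6 of 88. Cd28 was found in 21 of 31 cells with the kinase gene Mapk14 and 36 of 113 without. Cd28 was also found in 27 of 39 cells with Cxcr3 and 30 of 105 without. Ccl4 was found in 11 of 23 cells with Cd69 and 13 of 121 without. Some of the 32 pairs are counted here without being named.

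Of the 7 negative pairs, 3 involved Ccl5, a chemokine of effector and memory cells. Ccl5 was found in 1 of 79 cells with Myc (1.27%) and 19 of 65 without (29.2%), in 6 of 102 with Tcf7 and 14 of 42 without, and in 5 of 94 with Zfp281 and 15 of 50 without. Since every Ccl5 value in these cells was at or below 8.18, the pattern concerns very late amplification. Cxcr3 was found in 0 of 26 cells with Xcl1, which allows up to 11.5%, and 39 of 118 without. These genes stood mostly in different columns: in the first 85 the counts were 0 of 22 cells with Xcl1 and 10 of 63 without, and in the last 59 they were 0 of 4 and 29 of 55. The other 3 were Irf4 with Klf2, Myc with Klf2, and Klf2 with Ccl4, found in 3 of 50 cells with Klf2 and 21 of 94 without.

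The same pairs were looked up in the populations nearest in time, and some of them are given here. Klf2 was found in 3 of 35 day 3 cells with Irf4 and 51 of 108 without, -38.7 points, close to the -39.3 of first-division cells. It was found in 0 of 10 distal cells with Irf4, which allows up to 30%, and 15 of 38 without, and in 7 of 23 proximal cells with Irf4 and 24 of 60 without, -9.57 points. Il2ra was found in 46 of 65 day 3 cells with Myc and 26 of 78 without, also 37.4 points, and the difference was 17.3 points in proximal and 17.1 in distal cells. The Myc and Ccl5 difference, -28.0 points in first-division cells, was -2.33 in proximal, 0 in distal and -3.59 in day 3 cells. Ccl5 itself was found in only 4 of 83 proximal, 0 of 48 distal and 5 of 143 day 3 cells. The distal value could therefore only be 0 and the others only small, so they cannot show whether the pattern is particular to first-division cells. Over the 10-gene panel, 6 of 45 pairs were at least 20 points higher in day 3 cells (13.3%) and 3 lower (6.67%), 6 of 43 higher in proximal cells (14%) and 0 lower (0%), and 5 of 43 higher in distal cells (11.6%) and 7 lower (16.3%). Whether these differences differ between populations was not tested, with 1 sample each.

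Against the nearest populations few genes stood apart. Compared with proximal daughters, 0 of 94 genes (0%) were found in at least 20 points more first-division cells and 3 (3.19%) in fewer: Ccr7 (27.1% against 65.1%), Cxcr3 (27.1% against 48.2%) and Thy1 (29.2% against 50.6%). In the later columns alone the Cxcr3 difference was -5.14 points and that of Thy1 -11.7, both short of 20. The Ccr7 difference was -20.6 points in the earlier and -55.3 in the later columns. Ccr7 was found in 45.9% of the first 85 columns, less than 20 points below the proximal share, and in 0 of the last 59. Compared with distal daughters, 6 (6.38%) were found in more first-division cells and 0 (0%) in fewer. They were Cxcr3 (27.1% against 4.17%), Cd28 (39.6% against 10.4%), Lgals1 (41.7% against 12.5%), Il2rb (50.0% against 25%), Cd8a (60.4% against 37.5%) and Rela (45.1% against 25%). In the earlier columns alone Cxcr3 (6.94 points), Cd8a (12.5) and Il2rb (18.1) fell short of 20, and in the later ones Rela (19.4). Distal cells had a median of 12 positive assays, against 18 in first-division cells, and a median R18s value of 25.2, against 28.7. The part of these gaps in the 6 differences was not tested. Proximal cells also had a median of 18 positive assays, but their median R18s value was 26.1, and its part was not tested either.

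Compared with day 3 responders, 5 genes (5.32%) were found in more first-division cells and 0 (0%) in fewer. The higher ones included Cd8a (60.4% against 27.3%), Lgals1 (41.7% against 18.2%), Eomes (41.7% against 20.3%) and Cxcr3 (27.1% against 6.29%). In the earlier columns alone Cxcr3 (4.82 points), Lgals1 (16.5) and Eomes (18.6) fell short of 20. The number of cells transferred also differed, so stage and transfer cannot be told apart. Day 3 cells had lower medians for R18s (26.7, against 28.7 in first-division cells), Gapdh (14.7 against 17.3) and positive assays (16 against 18). The part of these gaps in the 5 differences was not tested. Over all columns, Myc, Il2ra, Irf4 and Klf2 stayed within 20 points of all 3 populations. Klf2 in particular was found in 34.7% of first-division cells, against 37.3% of proximal, 31.2% of distal and 37.8% of day 3 cells. In the later columns alone, Irf4 (45.8%) was more than 20 points above distal (20.8%) and day 3 cells (24.5%). Il2ra (50.0%) was likewise more than 20 points above distal cells (27.1%) in the later columns.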

How the data were processed

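Single OT-1 cells were sorted into a reverse transcription and preamplification mix, amplified for 18 cycles with pooled TaqMan assays, diluted 5-fold and measured on dynamic arrays with a BioMark instrument, per the labels' protocols. The deposited table holds log2 values in PCR cycles for 95 assay rows (94 genes, with Il2 measured by 2 rows) and 1449 cells. The labels call the values Ct, but they grow with transcript amount and are 0 without detection, so they were read as 40 minus Ct, with 40 inferred from the values. The design had assumed Ct, and its limit, Ct 28, became a deposited value of 12. Of all values 83.4% were 0. Of the first-division values above 0, 8.77% lay at or below 12. RefSeq names were found through the accession for 93 rows, 3 of which were renamed. No filter on cells is given in the sources used here, and no per-cell array, so no batch could be fitted.

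Each population is 1 sample, so no test was run and no p-value is given. Shares of cells have exact Clopper-Pearson 95% intervals, and a count of 0 was given a limit of 3 counts of the total. Differences were counted at 20 points in share or 1 cycle in level. Named genes are the 5 markers, genes past those thresholds, the 10 genes of the pair panel, members of the gene lists, and genes in no or all first-division cells. Pairs from the scan and genes by the count of Myc, Il2ra and Irf4 were chosen after their values were seen. The members and lists were chosen with earlier results of these data known. A few items enter the counts but are not named here. Alternatives were other limits, centring, cells with at least 10 assays, a threshold of 30 points and parts of the columns. Doublets were not called, since cells were sorted singly and the panel is small. The calculations were tested on simulated data. The software was scipy 1.17.1 with numpy 2.4.6, under Python 3.11.15, and matplotlib 3.10.9 for plots.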

Additional observations from a re-analysis of the deposited data

How the results depend on the processing

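The counts of genes at least 20 points apart from naive cells stayed within 1.5 times of 10 higher and 3 lower in every alternative run, going from 7 to 14 higher and 2 to 4 lower. The level counts depended on the limit and the scaling: of 9 higher, 1 remained at a limit of Ct 24, 39 were counted with no limit, 3 after centring on Actb and Gapdh, 4 after centring on R18s and Actb, and 14 in the earlier columns. Of 3 lower, the count was 0 at Ct 24 and 1 at Ct 26. Against proximal cells, 0 higher became 5 with Ct 28 as the detection limit, 2 in the earlier and 1 in the later columns, and 3 lower became 5 in the earlier and 1 in the later columns. Against distal cells, 6 higher became 13 in the later columns. Against day 3 cells, 5 higher became 2 in the earlier and 9 in the later columns, and 0 lower became 1 in the later columns. Of the panel pairs, 4 higher became 10 in the earlier and 10 in the first 85 columns, and 3 lower became 5 in cells with fewer other assays. No difference from naive cells past 20 points reversed, nor did a panel pair past 20 points. The Xcl1 difference between cells with all and none of Myc, Il2ra and Irf4, 23.4 points, was -8.33 in the last 59 columns. Below 20, the Ccr7 difference from naive cells, -7.82 points, was 9.55 in the earlier columns, and that of Tcf7, -4.33, was 6.78 in the later ones. The cause of these changes was not tested. No paired analysis was possible because each population is 1 sample. Precision is set by 144 first-division and 149 naive cells, and a transcript found in 0 of them can have a share of up to 2.08% and 2.01%.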

Other observations

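Some first-division cells held values above their own Actb, one of the most abundant transcripts. Il3, the haematopoietic cytokine interleukin 3, exceeded Actb in 6 of the 9 first-division cells that had it, with values from 14.2 to 27.7 and a median of 21.0, and was found in 0 of 149 naive cells, which allows up to 2.01%. All 9 stood in the first 85 columns. Tcf7 exceeded Actb in 8 of 102 positive cells. Single high values also occurred for Tcf3 (35.0, in 1 of 3 positive cells), Nfatc2 (26.3, in 1 of 7), Il2rb (28.2) and Bnip3l (23.1).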
